A study of Mus musculus with 16 samples.

Results

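The genes described here control entry into the cell cycle from G1: the D cyclins *Ccnd1*, *Ccnd2* and *Ccnd3*, the kinases *Cdk4* and *Cdk6*, the pocket proteins *Rb1* and *Rbl1*, and the transcription factors *E2f1*, *E2f2* and *E2f3*. They were chosen by name, and all 10 were found in the count tables of both cell types, which share 24974 genes. All 10 passed the filter on low counts in every comparison.

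Expression was measured by RNA-seq of polyA RNA in 16 samples of mouse thymocytes, in 4 groups. The DP samples were sorted CD4+CD8+ thymocytes, per the study, from mice with a floxed *Tox4* allele and no Cre (control, genotype Tox4;F/F, 3 samples) or with Lck-Cre (cKO, genotype Tox4;F/F;Lck+, 3 samples). The CD8 samples were sorted TCRβ+ CD8+ thymocytes of the same kinds of mice (control, Tox4;F/F, 5 samples, and cKO, Tox4;F/F;Lck-cre, 5 samples). All mice were on a C57BL/6 background, and per the study's methods they were littermates of 6 to 8 weeks of age matched for sex. The controls of both cell types carry the floxed allele, and Cre is driven by the proximal *Lck* promoter, which acts in T cells from an early CD4-CD8- stage, which comes before the DP stage. Total counts ranged from 14583336 to 25981683 in the DP samples and from 8514135 to 13530783 in the CD8 samples. The 2 cell types came as separate tables, so in any comparison between them the cell type and the table cannot be told apart. The p-values measure the spread between these samples.

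D cyclins bind Cdk4 or Cdk6, and the kinase complexes phosphorylate Rb family proteins, which releases E2F factors to switch on genes of DNA replication. In the thymus, *Ccnd3* is needed for the burst of division that follows pre-TCR signalling, and DP cells then become small and largely stop dividing. *E2f1*, *E2f2* and *E2f3* are usually called activators, though *E2f2* is also known to restrain division in T cells.

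*Tox4*, the deleted gene, was counted over all its exons, so a transcript that lacks the floxed part still adds to the count. *Tox4* stood at 104, 107 and 113 TPM (a level scaled to transcript length and depth) in DP control and at 86.5, 89.0 and 77.8 TPM in DP cKO samples, and the groups did not overlap. In CD8 control samples 1 to 5 it stood at 139, 141, 148, 142 and 129 TPM, and in CD8 cKO samples at 122, 137, 131, 162 and 133 TPM. The library labelled cKO replicate 4 was above every CD8 control, and these groups overlapped. The log2 fold change of *Tox4* was -0.32 in DP (SE 0.11, edgeR adjusted p = 0.381) and -0.06 in CD8 cells (SE 0.10, adjusted p = 0.979). These are RNA counts. At the level of protein, the study reports efficient deletion by Western blot, in unsorted and in sorted thymocytes. The study reports *Cdkn1a* (p21) as raised in CD8 cKO cells. Its CD8 groups did not overlap here, so the library labelled cKO replicate 4 was above every CD8 control for it. The label of that library is kept, and the CD8 changes of the 10 genes are also given without it. CD8 control replicate 1 stood apart in another way, with at least 1 count for 17741 genes against 13708 to 14194 in the other CD8 controls.

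The DP markers set the cell types apart, and the CD8 markers were mixed. Of the 7 DP markers, all 7 were lower in control CD8 than in control DP cells (edgeR adjusted p under 0.05), with a mean of 3606 TPM for *Rag1* in DP control and 25.5 in CD8 control samples, and *Cd4* at 1675 and 30.7 TPM. Of the CD8 markers, 4 of 5 were in the tables, and in control CD8 against control DP cells 2 were higher and 2 lower. *Runx3*, a CD8 lineage factor, had a log2 fold change of 4.09 (edgeR adjusted p = 8.44e-09) and *Cd3e* 0.70 (adjusted p = 0.00851). *Cd8a* and *Cd8b1*, which DP cells also express, had -0.39 (adjusted p = 0.00668) and -0.80 (adjusted p = 3.06e-05). Globin genes were at 0 counts in all samples, *Foxn1* of thymic epithelium was at 0 in the DP samples, and myeloid markers summed to 285 ± 49.3 TPM (SD, n = 3) in DP control and 102 ± 18.1 (n = 5) in CD8 control samples, with *Cst3* the most abundant. In CD8 cKO against control cells 4 of 4 NK and gamma delta markers tested were above 0 (median 0.73), the list summed to 29.4 ± 7.92 against 17.2 ± 4.48 TPM, and 1 passed edgeR (*Cd163l1*, log2 fold change 1.81, adjusted p = 0.00984) and 2 DESeq2. Of the double negative markers 3 of 3 were above 0 (median 0.29, 87.2 ± 15.0 against 66.3 ± 11.2 TPM), with 1 at an unadjusted p under 0.05, and in CD8 cells 0 genes of the double negative and all other lists passed edgeR. B cell markers summed to 52.2 ± 9.82 and 32.3 ± 15.8 TPM, double negative markers to 23.2 ± 5.31 and 66.3 ± 11.2, NK and gamma delta markers to 4.12 ± 1.13 and 17.2 ± 4.48, and epithelial markers to 9.56 ± 2.21 and 4.24 ± 1.90 in DP control and CD8 control samples. Among the CD8 samples, replicates 1 and 2 of both genotypes stood apart from replicates 3 to 5. The CD4 markers summed to 96.0, 87.4, 20.8, 15.3 and 30.5 CPM in CD8 control and to 92.0, 90.8, 14.9, 12.6 and 17.8 CPM in CD8 cKO samples. CPM are counts scaled to depth with TMM factors, and not to transcript length. The mature markers summed to 3191, 2785, 5053, 5277 and 4334 TPM in CD8 control and to 2851, 2897, 5379, 5530 and 4426 TPM in CD8 cKO samples. Only the fits with the replicate number as a block took account of this split. In CD8 cells 0 of the 10 genes passed in them.

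In control DP thymocytes the transcript of *Ccnd3* led the set with 1570 ± 161 TPM (SD, n = 3), rank 66 among all genes by mean TPM. *E2f2* (293 ± 23.4) and *Cdk4* (274 ± 39.0) came next and overlapped. *Rb1* followed at 103 ± 6.98 TPM, then *Rbl1* at 43.2 ± 9.96 and *Cdk6* at 41.0 ± 5.78, which overlapped with each other, and *E2f1* at 27.3 ± 6.08 and *Ccnd2* at 21.9 ± 6.53, which also overlapped. *E2f3* (11.1 ± 2.69) and *Ccnd1* (1.53 ± 1.47) were the lowest.

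In control CD8 thymocytes *Ccnd2* was the most abundant of the 10, at 650 ± 40.4 TPM (n = 5), above *Ccnd3* at 464 ± 58.6, and no sample of *Ccnd2* fell into the range of *Ccnd3*. *Cdk4* came next at 271 ± 29.6 TPM. *Rb1* (75.0 ± 14.7), *Cdk6* (72.0, from 62.5 to 79.9), *Rbl1* (59.3 ± 6.74) and *E2f2* (54.5 ± 15.6) each overlapped with the next in this order, as did *E2f1* (26.4 ± 9.02) and *E2f3* (25.7 ± 3.53). *Ccnd1* was again last, at 1.11 ± 1.07 TPM. The leading gene of the set therefore differed between the cell types, while *Ccnd1* was lowest in both.

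**Figure D1:**
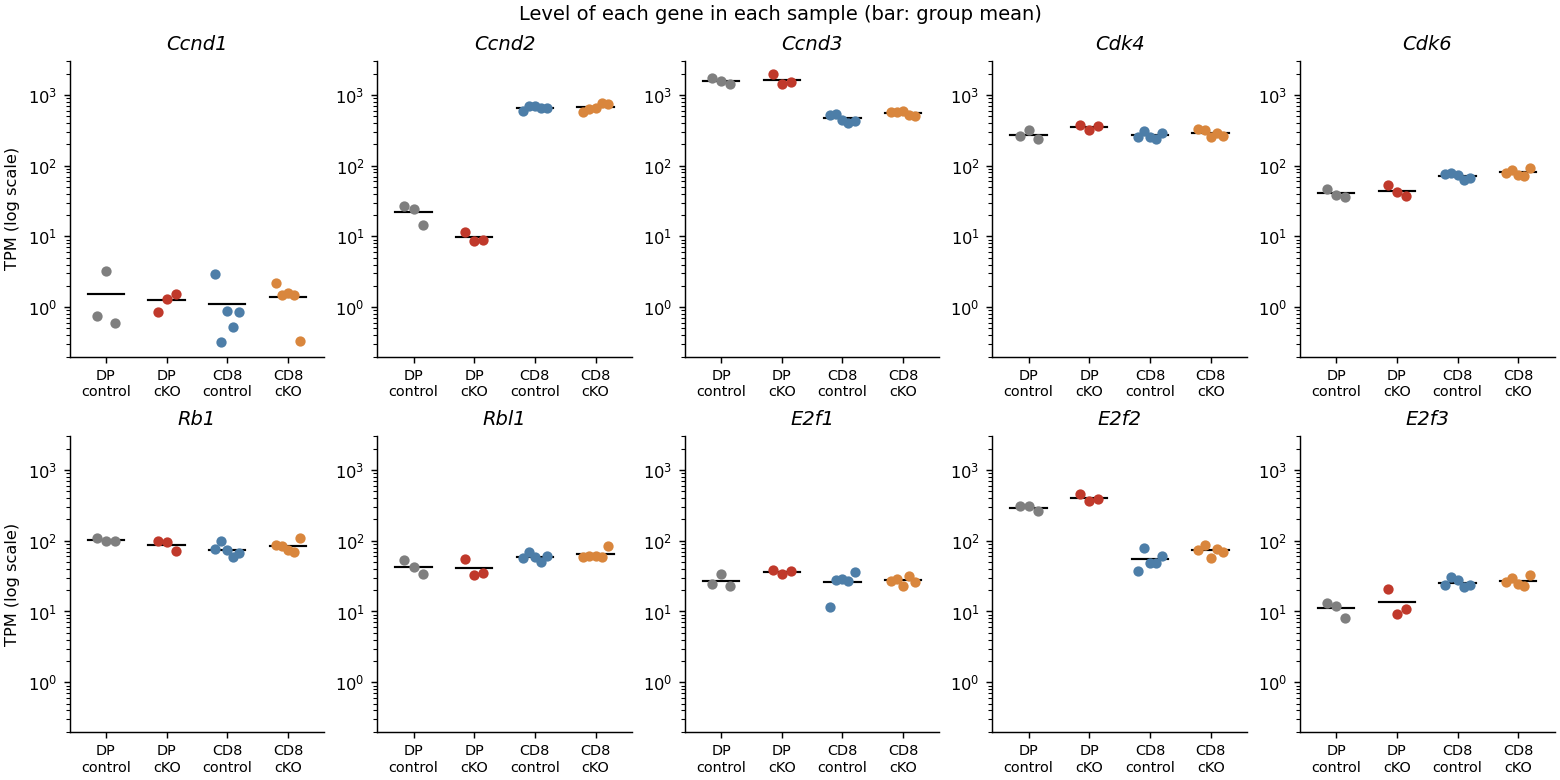
Level of each of the 10 genes in each sample, in TPM on a log scale, for DP control (3), DP cKO (3), CD8 control (5) and CD8 cKO (5) samples; points are samples and bars are group means. *Ccnd2* lies between 8.52 and 26.6 TPM in DP and between 579 and 779 TPM in CD8 samples, and *E2f2* and *Ccnd3* are lower in every CD8 than in every DP sample.

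Between control CD8 and control DP cells, *Ccnd2*, *E2f3*, *Cdk6* and *Rbl1* were higher in CD8 and *E2f2*, *Ccnd3* and *Rb1* were lower (edgeR, adjusted p under 0.05). These 7 of 10 genes stand beside 60.3% of the 11758 genes tested that passed the same threshold, 29.9% higher and 30.4% lower. Of the 10, 5 were also called, which asks in addition for a mean above or at 1 TPM and a difference of 1.5-fold or more (*Ccnd2*, *E2f3*, *Cdk6*, *E2f2* and *Ccnd3*), beside 44.3% of all genes. These shares are near those of all genes, so the comparison tells which member was higher or lower and nothing about the set as a whole. In cKO cells the same comparison, which uses other samples, passed 8 of 10, beside 63.0% of 11740 genes (4 higher, beside 29.6%, and 4 lower, beside 33.5%), and called 6, beside 48.6%. The 6 were the same 5 genes and *E2f1*. The median log2 fold change of the 10 was -0.11 in control and -0.10 in cKO cells, against -0.01 and -0.06 over all genes.

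**Figure D2:**
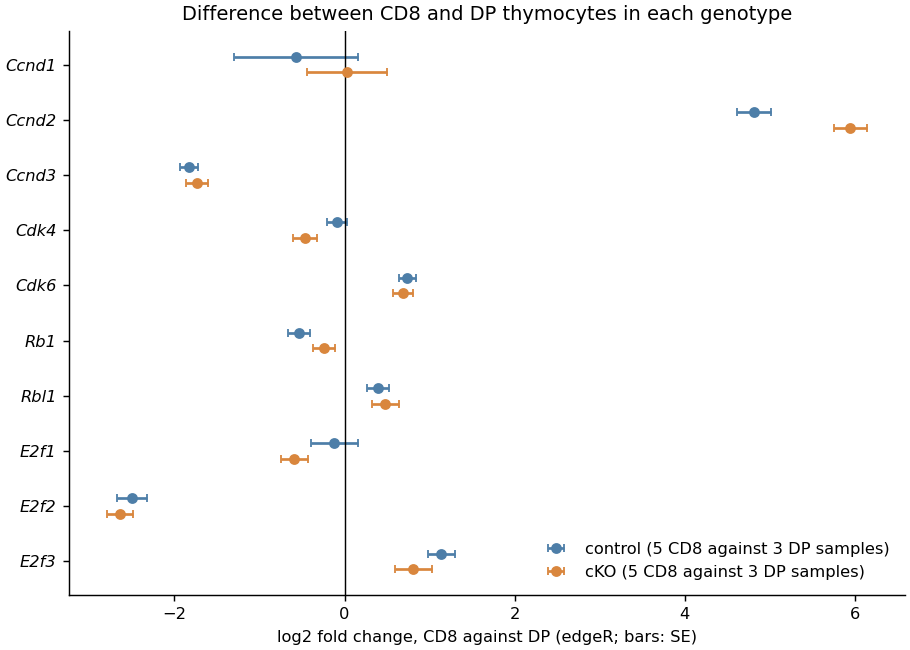
Log2 fold change of each gene in CD8 against DP cells, by edgeR with its SE, in control (blue) and cKO (orange) samples, each with 5 CD8 and 3 DP samples. *Ccnd2* lies at 4.82 in control and 5.95 in cKO cells, and *E2f2* at -2.50 and -2.64.

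After loss of *Tox4*, no member passed the main test, fitted without a block, in either cell type. In DP cells 0 of 10 passed edgeR's adjusted p of 0.05, beside 0.145% of 11748 genes called (17 genes, which also pass the fold and TPM thresholds). Leaving out any 1 DP library brought the 17 genes down to between 0, without control replicate 2, and 8, without control replicate 1. At an unadjusted p under 0.05 there were 4 (*Ccnd2*, *E2f2*, *Cdk4* and *E2f1*), beside 1079 of the 11748 genes, and the DESeq2 Wald test passed 2 (*Ccnd2* and *E2f2*). With the replicate number as a block edgeR passed 1 (*Ccnd2*, adjusted p = 0.0181), and 131 genes were called. In CD8 cells 0 of 10 passed, beside 0.107% of 11227 genes past the adjusted p and 0.0980% called (12 and 11 genes). The 11 became 4 without control replicate 3, 6 without control replicate 5, 7 without cKO replicate 3, and 20 without the library labelled cKO replicate 4. There 2 had an unadjusted p under 0.05 (*E2f2* and *Ccnd3*), beside 629 of the 11227 genes, and DESeq2 passed 0. Without the library labelled cKO replicate 4 the CD8 log2 fold changes were 0.32 for *Ccnd1*, -0.07 for *Ccnd2*, 0.05 for *Cdk4*, 0.15 for *Cdk6*, 0.18 for *Rb1*, 0.10 for *Rbl1* and 0.07 for *E2f3*. Without CD8 control replicate 1 they were -0.01 for *Ccnd2*, 0.28 for *Ccnd3*, 0.05 for *Cdk4*, 0.17 for *Cdk6*, 0.16 for *Rb1*, 0.09 for *Rbl1* and 0.02 for *E2f3*. No member passed in either. For 3 of the 10 genes (*Ccnd2*, *Rb1* and *E2f2*) the DP groups did not overlap in CPM, beside 14.7% of genes, and in CD8 cells this held for 0 of 10, beside 1.52%. The median log2 fold change of the 10 was 0.12 in DP and 0.11 in CD8 cells, against 0.00 and -0.01 over all genes. The test of the difference between both changes passed 1 of the 10, *Ccnd2*, beside 0.107% of 12131 genes (13 genes). With 1 library left out the 13 became 0 to 11, and the 1 became 0 in 15 of 16 cases, all except without DP control replicate 3.

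**Figure D3:**
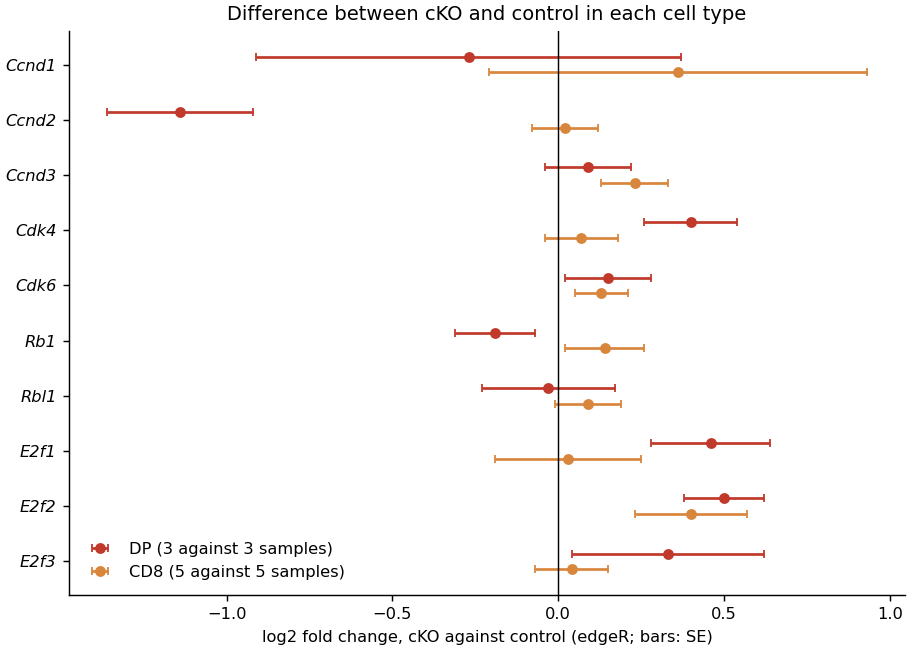
Log2 fold change of each gene in cKO against control samples, by edgeR with its SE, in DP cells (red, 3 against 3) and CD8 cells (orange, 5 against 5). *Ccnd2* is at -1.14 in DP and 0.02 in CD8 cells, and *E2f2* is above 0 in both, at 0.50 and 0.40.

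*Ccnd2* (cyclin D2; mm10 chromosome 6, 127125709 to 127151048, minus strand) had 26.6, 24.7 and 14.5 TPM in DP control and 11.6, 8.52 and 8.85 TPM in DP cKO samples 1 to 3. All 3 cKO samples were below all 3 controls, and control replicate 3 was the closest to them. In CD8 control samples it had 587, 685, 686, 643 and 651 TPM, and in CD8 cKO samples 579, 623, 642, 779 and 737 TPM. The CD8 groups overlapped, with the library labelled cKO replicate 4 the highest. In control cells *Ccnd2* was 28.3-fold higher in CD8 than in DP (log2 fold change 4.82, SE 0.20, edgeR adjusted p = 9.42e-09), the largest difference of the 10, and in cKO cells 61.6-fold higher (log2 5.95, SE 0.19, adjusted p = 4.37e-10).

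The change of *Ccnd2* after *Tox4* loss was -1.14 in DP cells (SE 0.22, edgeR adjusted p = 0.122), a level of 19.3 ± 2.80 CPM in cKO against 42.6 ± 11.7 in control samples, and 0.02 in CD8 cells (SE 0.10, adjusted p = 0.998). In DP cells the adjusted p was 0.000258 with DESeq2, 0.0128 without the filter on low counts and 0.00403 with all 4 groups in a single fit. With the replicate number as a block it was 0.0181 by edgeR, though the numbers were not taken to pair the samples. With any 1 of the 6 DP libraries left out it lay between 0.0666 and 0.397. The difference between the changes, CD8 minus DP, was 1.16 (SE 0.22, adjusted p = 0.0499). It passed with 1 of 16 libraries left out in turn (DP control replicate 3, adjusted p = 0.00304), and with each of the other 15 left out the adjusted p lay between 0.0595 and 0.223, at 0.0690 without the library labelled CD8 cKO replicate 4 and 0.0854 without CD8 control replicate 1. Without both CD8 samples numbered 1, chosen after seeing the data, it was 0.0919. The log2 difference kept its sign in all of these, between 1.04 and 1.37.

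Cell type markers in the DP samples are given beside *Ccnd2*, and 0 of them passed edgeR. The 7 markers of mature single positive thymocytes summed to 367, 317 and 299 TPM in DP control and 287, 293 and 262 TPM in DP cKO samples, and the groups did not overlap. The egress receptor *S1pr1* had means of 3.49 and 1.29 TPM, *Ccr7* 34.2 and 15.8, *Il7r* 15.7 and 7.71, *Klf2* 13.3 and 10.6 and *Itgb7* 43.9 and 34.9, and *H2-Q7* was at 0 counts in all samples. Of the 6 tested, 6 had log2 fold changes below 0 (median -0.64) and 0 passed edgeR's adjusted p, 3 with an unadjusted p under 0.05 and 1 by DESeq2. In CD8 control samples, where *Ccnd2* was high, the same markers summed to 4128 ± 1107 TPM, and all 6 tested were higher than in control DP cells. Of the 4 CD4 markers 3 were below 0 (median -0.81), and 0 passed edgeR, with 2 at an unadjusted p under 0.05 and 1 by DESeq2. *Zbtb7b* stood at 9.12 and 4.16 TPM, and *Cd4* at 1675 and 1676.

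The CD8 markers, which DP cells express, summed to 7534, 6503 and 6708 TPM in DP control and 6338, 5616 and 5906 TPM in DP cKO samples, without overlap (3 of 4 below 0, median -0.08, 0 past edgeR or DESeq2, 1 at an unadjusted p under 0.05). Of the 3 NK and gamma delta markers tested 2 were below 0 (median -0.25, 0 past edgeR or DESeq2, 1 at an unadjusted p under 0.05). Of the 8 myeloid markers 5 were below 0 (median -1.11), and 0 passed edgeR, with 5 at an unadjusted p under 0.05 and 1 by DESeq2. *Lyz2* stood at 32.7 TPM in DP control and 10.3 in DP cKO samples and *C1qa* at 8.36 and 3.10, but *Cd68* at 18.7 and 28.0 and *Itgam* at 6.99 and 6.87, and the summed list, 285 ± 49.3 and 268 ± 10.4 TPM, was mostly *Cst3* (205 and 214). The double negative markers were below 0 in 4 of 4 (median -0.46, 0 past edgeR or DESeq2, 2 at an unadjusted p under 0.05) and summed to 28.8, 22.5 and 18.2 TPM in control and 13.8, 17.7 and 17.0 in cKO samples, which overlap in CPM (44.2, 37.0 and 29.8 against 22.2, 27.0 and 30.8). Epithelial markers summed to 7.99, 8.60 and 12.1 TPM and to 6.92, 4.98 and 6.39. The B cell markers tested were below 0 in 3 of 3 (median -0.48, 0 past edgeR or DESeq2, 1 at an unadjusted p under 0.05). In bulk RNA fewer cells of a type and less RNA per cell cannot be told apart. The DP cells were sorted, with a purity above 95% per the study, and the part of other cells in the change of *Ccnd2* was not tested.

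**Figure D4:**
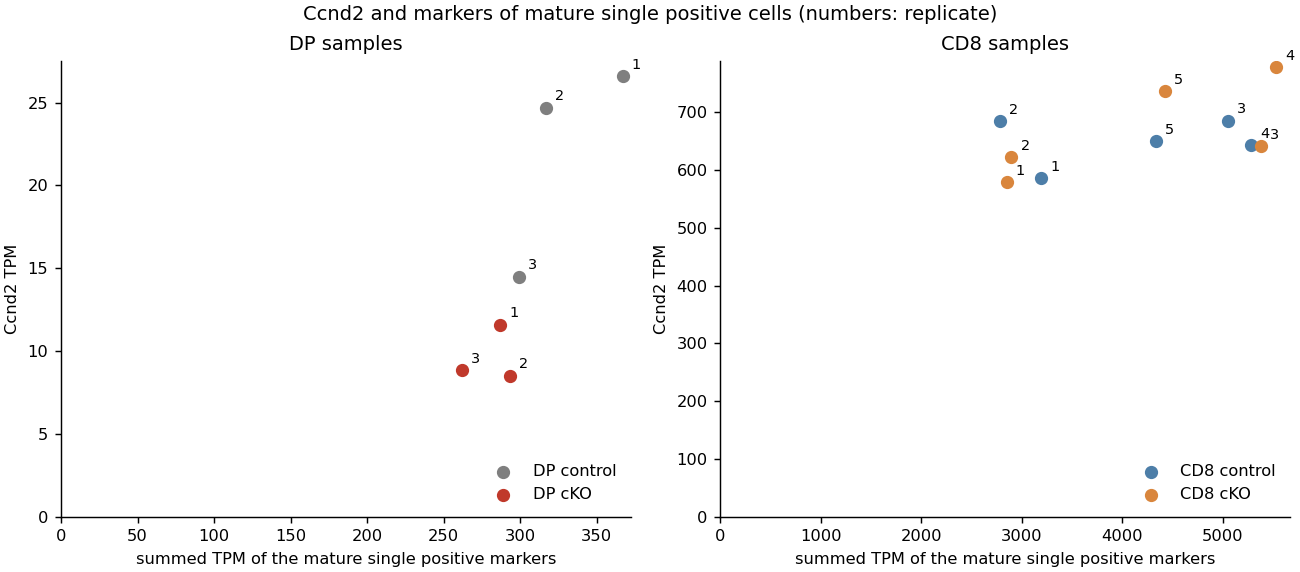
*Ccnd2* in TPM against the summed TPM of the mature single positive markers in each DP sample (left) and each CD8 sample (right); each point is a sample, with its replicate number. The 3 DP cKO samples lie below 12 TPM of *Ccnd2* and at sums of 262 to 293 TPM, and the DP controls above both; in CD8 cells the groups mix.

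*Ccnd3* (cyclin D3, the D cyclin of dividing immature thymocytes; chromosome 17, 47505051 to 47599688, plus strand) had 1733, 1568 and 1411 TPM in DP control and 1943, 1433 and 1518 TPM in DP cKO samples. In CD8 control samples it had 515, 535, 441, 397 and 431 TPM, and in CD8 cKO samples 581, 578, 588, 515 and 507 TPM. Every CD8 sample was below every DP sample, and within each cell type the genotypes overlapped. *Ccnd3* was 3.56-fold lower in CD8 than in DP control cells (log2 -1.83, SE 0.11, edgeR adjusted p = 9.70e-08) and 3.32-fold lower in cKO cells (log2 -1.73, SE 0.13, adjusted p = 2.25e-07). After *Tox4* loss its log2 fold change was 0.09 in DP cells (SE 0.13, adjusted p = 0.894) and 0.23 in CD8 cells (SE 0.10, adjusted p = 0.864, unadjusted p under 0.05 by edgeR), and 0.23 also without the library labelled CD8 cKO replicate 4.

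*Ccnd1* (cyclin D1, chromosome 7, 144929931 to 144939925, minus strand) was close to the limit of detection, with 14 to 81 counts in DP control, 24 to 57 in DP cKO, 4 to 33 in CD8 control and 3 to 30 in CD8 cKO samples. No difference was detected in any comparison. In DP control samples replicate 2 had 3.22 TPM and the others 0.747 and 0.607, so the group's mean and its share of the D cyclins rest on that library. The highest CD8 control was replicate 1 with 2.98 TPM, and the mean of the other 4 was 0.648 ± 0.268 TPM. Its log2 fold change in CD8 cKO against control cells was 0.36 (SE 0.57, edgeR adjusted p = 0.979) and 1.12 without that library (adjusted p = 0.796).

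Summed, the D cyclins were lower in CD8 than in DP control cells by less than *Ccnd3* alone. The sum was 1594 ± 167 TPM in DP control and 1115 ± 66.9 TPM in CD8 control samples. *Ccnd3* gave 98.5 ± 0.357% of it in DP control and 41.5 ± 3.58% in CD8 control samples, and *Ccnd2* gave 1.36 ± 0.298% and 58.4 ± 3.65%. In cKO samples *Ccnd2* gave 0.587 ± 0.00775% in DP and 54.6 ± 4.70% in CD8 cells. *Ccnd1* gave 0.0957 ± 0.0921% in DP control and 0.101 ± 0.0967% in CD8 control samples.

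**Figure D5:**
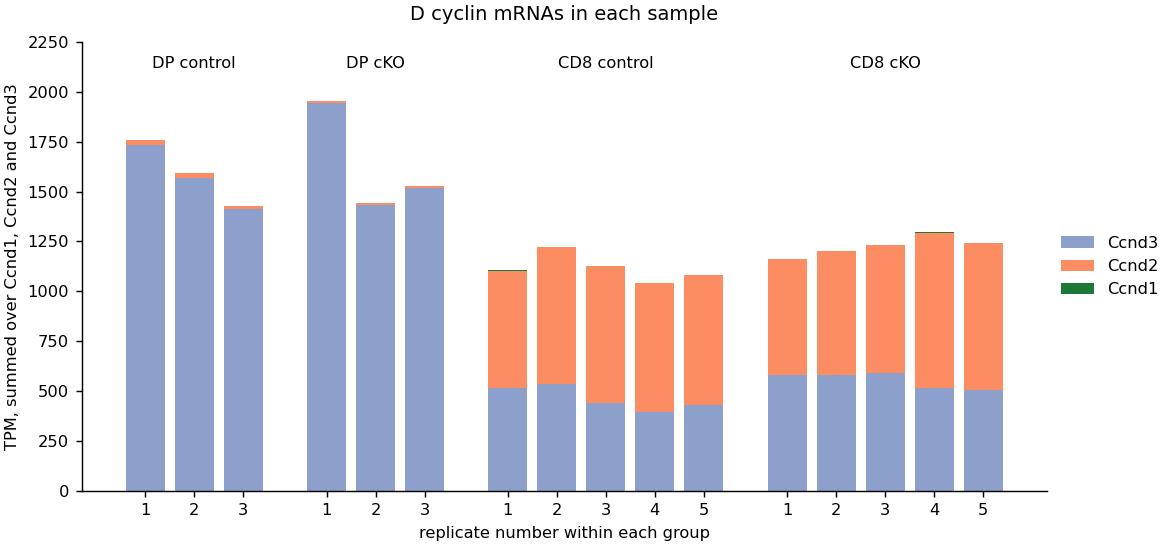
TPM of *Ccnd3*, *Ccnd2* and *Ccnd1* stacked for each sample, by group and replicate number, on a linear axis from 0. DP samples are nearly all *Ccnd3*, CD8 samples hold both *Ccnd2* and *Ccnd3*, and *Ccnd1*, at most 3.22 TPM, is too low to see in most bars.

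Of the partner kinases *Cdk6* had more transcript in CD8 thymocytes than in DP thymocytes, and *Cdk4* passed the test in cKO but not in control cells, a difference that was itself at -0.33 (edgeR adjusted p = 0.950). *Cdk4* (chromosome 10, 127063535 to 127067288, plus strand) had 265, 316 and 240 TPM in DP control and 369, 320 and 364 TPM in DP cKO samples, with cKO replicate 2 near control replicate 2. The log2 fold change was 0.40 (SE 0.14, edgeR adjusted p = 0.415) in DP and 0.07 (SE 0.11, adjusted p = 0.979) in CD8 cells. Between control CD8 and control DP cells *Cdk4* differed by -0.09 (SE 0.12, adjusted p = 0.524), and in cKO cells by -0.46 (SE 0.14, adjusted p = 0.0107), under the fold threshold, and this no longer passed without DP cKO replicate 3 (log2 -0.37, adjusted p = 0.0541). *Cdk6* (chromosome 5, 3343893 to 3531005, plus strand) had 47.5, 38.9 and 36.6 TPM in DP control and 76.8, 79.9, 73.1, 62.5 and 67.8 TPM in CD8 control samples, with no overlap. It was 1.67-fold higher in CD8 control cells (log2 0.74, SE 0.10, adjusted p = 7.55e-05) and 1.61-fold higher in CD8 cKO cells (log2 0.69, SE 0.12, adjusted p = 0.000289). Its changes after *Tox4* loss were 0.15 in DP and 0.13 in CD8 cells (SE 0.13 and 0.08, adjusted p = 0.807 and 0.979). *Cdk6* made up 13.1 ± 2.13% of the summed TPM of both kinases in DP control and 21.0 ± 1.65% in CD8 control samples.

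The pocket proteins went opposite ways between the cell types. *Rb1*, which holds activator E2Fs in check (chromosome 14, 73195502 to 73325822, minus strand), had 111, 100 and 98.3 TPM in DP control and 75.4, 98.3, 75.0, 58.7 and 67.4 TPM in CD8 control samples, with CD8 replicate 2 at the level of DP. It was lower in CD8 control cells (log2 -0.54, SE 0.13, edgeR adjusted p = 0.00330), under the fold threshold, and in cKO cells the difference was -0.24 (SE 0.13, adjusted p = 0.124). In DP cKO samples *Rb1* had 98.1, 94.9 and 72.0 TPM, and the log2 fold change was -0.19 (SE 0.12, adjusted p = 0.696), with 0.14 (SE 0.12, adjusted p = 0.979) in CD8 cells. *Rbl1* encodes p107, which is itself induced in cycling cells (chromosome 2, 157145894 to 157204534, minus strand). It had 53.5, 42.4 and 33.6 TPM in DP control and 57.3, 69.3, 58.7, 50.6 and 60.6 TPM in CD8 control samples, and the highest DP sample lay within the CD8 range. The difference was 0.39 (SE 0.13, adjusted p = 0.0226), under the fold threshold, and it no longer passed without DP control replicate 2 (log2 0.40, adjusted p = 0.0575) or replicate 3 (log2 0.26, adjusted p = 0.108). In cKO cells it was 0.48 (SE 0.16, adjusted p = 0.0202), also under the fold threshold, and no longer passed without DP cKO replicate 2 (log2 0.33, adjusted p = 0.111) or replicate 3 (log2 0.43, adjusted p = 0.0738). *Rbl1* changed by -0.03 in DP and 0.09 in CD8 cells after *Tox4* loss (SE 0.20 and 0.10, adjusted p = 0.976 and 0.979).

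Among the activator E2Fs, *E2f2* (chromosome 4, 136172274 to 136196056, plus strand) was high in DP cells. It had 306, 307 and 266 TPM in DP control and 455, 364 and 394 TPM in DP cKO samples, and all cKO samples were above all controls. CD8 control samples had 36.9, 78.0, 48.9, 48.2 and 60.4 TPM and CD8 cKO samples 74.0, 86.6, 56.6, 77.4 and 70.3 TPM. These overlapped, with control replicate 1 the lowest of all. *E2f2* was 5.68-fold lower in CD8 than in DP control cells (log2 -2.50, SE 0.18, edgeR adjusted p = 3.07e-07) and 6.24-fold lower in cKO cells (log2 -2.64, SE 0.15, adjusted p = 2.02e-08). After *Tox4* loss its log2 fold change was 0.50 in DP cells (SE 0.12, adjusted p = 0.180) and 0.40 in CD8 cells (SE 0.17, adjusted p = 0.818). In DP cells DESeq2 gave an adjusted p = 0.0188, the lowest of its alternatives, which ran up to 0.469. In CD8 cells the value was 0.30 without control replicate 1 and 0.35 without the library labelled cKO replicate 4.

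*E2f1* (chromosome 2, 154559400 to 154569892, minus strand) had 24.7, 34.2 and 22.9 TPM in DP control and 38.7, 33.8 and 37.5 TPM in DP cKO samples, so that control replicate 2 was level with the cKO samples. Its log2 fold change was 0.46 (SE 0.18, edgeR adjusted p = 0.459). CD8 control replicate 1 had 11.7 TPM and the other CD8 controls 27.8, 28.8, 27.4 and 36.4, and CD8 cKO samples had 22.7 to 32.2 TPM. The change in CD8 cells was 0.03 (SE 0.22, adjusted p = 0.998), and below 0 without that control (-0.15) or without the library labelled cKO replicate 4 (-0.07). In cKO cells *E2f1* was 1.51-fold lower in CD8 than in DP (log2 -0.59, SE 0.16, adjusted p = 0.00513), and in control cells the difference was -0.12 (SE 0.28, adjusted p = 0.722). These were not shown to differ (-0.44, adjusted p = 0.953), and the difference of *E2f1* in cKO cells was under 1.5-fold by DESeq2 (log2 -0.54), without DP cKO replicate 1 (-0.56) or 3 (-0.52) and without CD8 cKO replicate 3 (-0.52) or 5 (-0.54), with adjusted p under 0.05 in each. *E2f3* (chromosome 13, 29906575 to 29986063, minus strand) went the other way, with 13.3, 11.9 and 8.08 TPM in DP control and 23.8, 30.8, 27.7, 22.2 and 23.7 TPM in CD8 control samples. These did not overlap, and *E2f3* was 2.20-fold higher in CD8 control cells (log2 1.14, SE 0.16, adjusted p = 8.23e-05) and 1.75-fold higher in CD8 cKO cells (log2 0.81, SE 0.22, adjusted p = 0.00704). The cKO value was 0.58, about the fold threshold, without DP cKO replicate 2 and 1.23 without DP cKO replicate 1. The adjusted p was under 0.05 in both. DP cKO replicate 1 had 20.9 TPM of *E2f3* and the others 9.14 and 10.9, and its changes after *Tox4* loss were 0.33 in DP and 0.04 in CD8 cells (SE 0.29 and 0.11, adjusted p = 0.807 and 0.992). Of the summed TPM of these 3 factors, *E2f2* gave 88.5 ± 1.37% in DP control and 50.8 ± 3.93% in CD8 control samples, and the sum was 331 ± 30.1 and 107 ± 24.2 TPM.

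Promoter sequences from RefSeq (GRCm38.p6) were given for 7 of the 10 genes in 10 entries, each of 250 bases before and 50 after a gene start. *Ccnd1*, *Ccnd2* and *Rb1* had no entry in the table used. The entry of *E2f1* (154569377 to 154569676, minus strand) lies inside the gene as counted, which starts at 154569892. The bases before that start of *E2f1* were therefore not searched. The letters of an E2F motif were searched on both strands in 4 forms, TTTCCCGC, TTTCGCGC, TTTGCCGC and TTTGGCGC, none of which is the reverse complement of another. They were found in 3 of the 10 entries, of *Rbl1*, *E2f2* and *E2f3*, and in 2.26% of all 32851 entries of this length. The sequences of 4 genes that differed between CD8 and DP cells are shown for the 250 bases before the start, 5′ to 3′ on the gene's strand, with the matched letters in capitals. *Rbl1* and *E2f3*, both higher in CD8 cells, hold a match 18 and 11 bases before the start, and *Cdk6*, also higher, has none in its entry. *E2f2*, lower in CD8 cells, has its match at base 40 after the start, outside the stretch printed, and *Ccnd3*, also lower, has none in these windows. *E2f2*, *E2f3* and *Ccnd3* each had another entry further into the gene (from 136180532, 29984342 and 47593217), without a match. The stretches printed for them are from the entry at the start of the gene as counted. A match is a description of the letters.
*Rbl1*, chr2:157204535-157204784, minus strand: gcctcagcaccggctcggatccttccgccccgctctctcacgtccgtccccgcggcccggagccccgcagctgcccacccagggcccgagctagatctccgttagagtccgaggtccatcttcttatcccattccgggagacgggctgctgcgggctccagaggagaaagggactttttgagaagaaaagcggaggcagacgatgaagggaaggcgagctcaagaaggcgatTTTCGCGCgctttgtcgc
*E2f3*, chr13:29986064-29986313, minus strand: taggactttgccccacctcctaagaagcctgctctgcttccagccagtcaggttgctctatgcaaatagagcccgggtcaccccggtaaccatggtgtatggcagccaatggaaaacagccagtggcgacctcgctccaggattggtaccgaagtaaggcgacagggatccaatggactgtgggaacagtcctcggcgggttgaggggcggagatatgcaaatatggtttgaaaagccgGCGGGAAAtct
*E2f2*, chr4:136172024-136172273, plus strand: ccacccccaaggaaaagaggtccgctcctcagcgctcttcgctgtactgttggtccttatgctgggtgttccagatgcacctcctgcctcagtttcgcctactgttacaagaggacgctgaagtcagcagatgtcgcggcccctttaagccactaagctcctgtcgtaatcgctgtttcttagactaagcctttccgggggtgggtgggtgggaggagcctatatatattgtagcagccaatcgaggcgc
*Ccnd3*, chr17:47504801-47505050, plus strand: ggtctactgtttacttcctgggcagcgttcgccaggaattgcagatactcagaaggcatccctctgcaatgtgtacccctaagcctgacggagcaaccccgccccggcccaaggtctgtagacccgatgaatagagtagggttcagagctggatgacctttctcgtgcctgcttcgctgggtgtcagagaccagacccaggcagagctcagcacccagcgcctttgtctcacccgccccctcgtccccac

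Beside the counts of the lists that follow, 29.9% of all genes were higher and 30.4% lower in control CD8 against control DP cells, and 29.6% and 33.5% in cKO cells. The other factors of the Rb-E2F axis were read from a list of 8. In control CD8 against control DP cells 2 rose and 4 fell (median log2 fold change -0.29, all genes -0.01). The repressors *E2f8* (log2 -1.24, SE 0.28, edgeR adjusted p = 0.00243) and *E2f7* (-1.13, SE 0.18, adjusted p = 0.000202) fell, and *E2f5* (1.22, SE 0.18, adjusted p = 0.000136) and *E2f6* (0.85, SE 0.17, adjusted p = 0.00114) rose. In cKO cells 3 rose and 4 fell, among them *Tfdp1*, a dimer partner of E2Fs (-0.83, SE 0.14, adjusted p = 0.000195). After *Tox4* loss 0 of 8 passed edgeR in DP or CD8 cells, with 1 and 0 at an unadjusted p under 0.05 and 0 by DESeq2 in both. In DP cells *E2f7* had a log2 fold change of 0.49 (SE 0.17, adjusted p = 0.386) and *E2f8* 0.35 (SE 0.22, adjusted p = 0.696), and in CD8 cells *Tfdp2* had 0.16 and *Rbl2* 0.14 (SE 0.10 for both, adjusted p = 0.979 for both).

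Most genes of the list of E2F targets in S phase fell from DP to CD8 thymocytes. Of the 20 listed, 14 fell and 0 rose in control CD8 against control DP cells (median log2 fold change -0.84, all genes -0.01), led by *Rrm2*, a subunit of ribonucleotide reductase (-2.31, SE 0.29, edgeR adjusted p = 3.28e-05), and *Tyms*, thymidylate synthase (-1.89, SE 0.23, adjusted p = 2.86e-05). In cKO cells 18 fell (median -1.20, all genes -0.06), with *Tk1* at -1.98 (SE 0.18, adjusted p = 1.23e-06) and *Gins2* at -1.89 (SE 0.22, adjusted p = 1.01e-05). After *Tox4* loss in DP cells 20 of 20 log2 fold changes were above 0 (median 0.32, all genes 0.00), but 0 passed edgeR or DESeq2 and 4 had an unadjusted p under 0.05, and *Orc1* had 0.43 (SE 0.16, adjusted p = 0.408) and *Mcm7* 0.35 (SE 0.14, adjusted p = 0.480). In CD8 cells 16 of 20 were above 0 (median 0.08), 0 passed edgeR or DESeq2 and 1 had an unadjusted p under 0.05, and *Tyms* had 0.33 (SE 0.21, adjusted p = 0.979). The mean log2(CPM + 1) of the list was 6.39, 6.77 and 6.28 in DP control and 6.89, 6.58 and 6.86 in DP cKO samples, with control replicate 2 inside the cKO range. It was lowest in CD8 control replicate 1, and 5.53 to 5.81 in the other CD8 controls, and 5.33 to 5.87 in CD8 cKO samples. As a description over samples that share a library depth and a cell mixture, Pearson's r between this mean and *E2f1* was 0.954 in the 6 DP and 0.932 in the 10 CD8 samples, and with *Ccnd2* it was -0.313 and 0.498.

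Of the 12 mitotic genes, 11 were lower in CD8 cells in each genotype. In control CD8 against control DP cells 11 fell (median log2 fold change -1.74), among them the cyclin *Ccnb1* (-2.88, SE 0.28, edgeR adjusted p = 3.86e-06) and the APC activator *Cdc20* (-2.23, SE 0.25, adjusted p = 1.31e-05), and in cKO cells also 11 (median -1.85), among them *Aurkb* (-2.45, SE 0.19, adjusted p = 3.28e-07). After *Tox4* loss 12 of 12 log2 fold changes were above 0 in DP (median 0.37) and in CD8 cells (median 0.14). In both cell types 0 passed edgeR or DESeq2, with 2 and 0 at an unadjusted p under 0.05, and *Foxm1* had 0.57 in DP (SE 0.17, adjusted p = 0.328) and *Top2a* 0.36 in CD8 cells (SE 0.20, adjusted p = 0.954). The list's mean log2(CPM + 1) was 6.40, 6.71 and 5.95 in DP control and 7.14, 6.48 and 6.73 in DP cKO samples, which overlap. It was 4.12 in CD8 control replicate 1 and 4.80 to 5.06 in the other CD8 controls. In CD8 cKO samples it was 4.71 to 5.45, highest in the library labelled replicate 4. The 22 proliferation genes listed in the study's methods share 7 genes with each of these lists, so they are not separate from them. Of the 22, 16 fell in control and 19 in cKO CD8 against DP cells, and after *Tox4* loss 0 passed edgeR in either cell type (medians 0.31 in DP and 0.10 in CD8, 3 and 1 at an unadjusted p under 0.05, 1 and 0 by DESeq2). *Mybl2* had 0.70 in DP cells (SE 0.17, adjusted p = 0.220, and by DESeq2 0.0232, the lowest of its alternatives, which ran up to 0.557).

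Of the kinases and cyclins that act next, 5 of 8 genes of cyclin E-Cdk2 and the Cdk-activating kinase fell in control CD8 against control DP cells and 0 rose (median log2 fold change -0.75). *Cks1b*, which binds Cdk2, had -1.71 (SE 0.22, edgeR adjusted p = 4.15e-05), *Mnat1* -1.34 (SE 0.16, adjusted p = 2.44e-05) and *Cdk2* -1.04 (SE 0.15, adjusted p = 0.000107). In cKO cells 5 fell as well (median -0.78). After *Tox4* loss 0 of 8 passed edgeR or DESeq2 in DP or CD8 cells (1 and 0 at an unadjusted p under 0.05). Of the 7 CDK inhibitors 5 were tested between cell types, and 4 fell in control and 4 in cKO cells, with the same median of -1.72. *Cdkn2c* (p18, an inhibitor of Cdk4 and Cdk6) had -2.49 (SE 0.21, adjusted p = 1.32e-06), *Cdkn2d* (p19) -1.72 (SE 0.14, adjusted p = 9.28e-07) and *Cdkn1b* (p27) -1.02 (SE 0.14, adjusted p = 5.52e-05). After *Tox4* loss 0 passed edgeR in DP or CD8 cells, with 1 and 1 at an unadjusted p under 0.05, and DESeq2 passed *Cdkn1a* (p21) in both. Its mean went from 2.21 to 5.87 TPM in DP cells (log2 1.42, SE 0.38, edgeR adjusted p = 0.245) and from 2.06 to 6.28 TPM in CD8 cells (log2 1.55, SE 0.33, adjusted p = 0.126), and neither pair of groups overlapped.

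Of 10 genes that govern the turnover of D cyclin protein, 4 fell and 0 rose in control CD8 against control DP cells, beside 30.4% and 29.9% of all genes (median log2 fold change -0.21), led by *Skp1a* (-0.85, SE 0.11, edgeR adjusted p = 4.36e-05) and *Usp2* (-0.76, SE 0.22, adjusted p = 0.00928), and in cKO cells 5 fell and 2 rose (median -0.32). After *Tox4* loss 0 passed edgeR or DESeq2 in either cell type, and 0 had an unadjusted p under 0.05. Of 13 upstream inputs to the D cyclins in thymocytes, 6 rose and 6 fell in control CD8 against control DP cells, beside the same shares of all genes (median 0.03), and the same numbers held in cKO cells (median -0.15). *Klf2* (log2 6.24, SE 0.49, adjusted p = 6.99e-07), *Foxo1* (2.92, SE 0.16, adjusted p = 3.87e-08) and *Myc* (2.84, SE 0.16, adjusted p = 5.14e-08) were among those that rose, and *Ptcra*, the pre-TCR alpha chain, fell (-4.43, SE 0.51, adjusted p = 1.56e-05). After *Tox4* loss in DP cells 1 of 13 passed, *Myc*, which rose from a mean of 46.5 to 88.9 TPM (log2 0.97, SE 0.13, adjusted p = 0.0315). That call was lost with 5 of the 6 DP libraries left out in turn (adjusted p up to 0.208). In CD8 cells 0 of 12 tested passed edgeR or DESeq2, 1 had an unadjusted p under 0.05, and *Notch1* had 0.21 (SE 0.08, adjusted p = 0.753). The difference between both changes of *Myc* was -1.08 (SE 0.23, adjusted p = 0.0910).

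The genes whose pattern over the 16 samples was most like that of a D cyclin were ranked by Pearson's r of log2(CPM + 1) over 12039 other genes. The value of r within each cell type is given beside it, all as descriptions over samples that share their cell type and table. For *Ccnd2* they were *Pced1b*, *Bcl2* and *Samhd1*, each with r = 0.997. Within the 6 DP samples r was 0.930, 0.950 and 0.958, and within the 10 CD8 samples -0.296, 0.279 and 0.0705. *Bcl2* had means of 21.8 TPM in DP control, 13.3 in DP cKO, 149 in CD8 control and 165 in CD8 cKO samples. For *Ccnd3* they were *Myo10* (r = 0.992), *Cyb5a* (0.991) and *Xrcc6* (0.990), with 0.862, 0.441 and 0.537 in DP and 0.726, 0.844 and 0.728 in CD8 samples. For *Ccnd1*, whose counts were few, they were *Spib* (0.848), *Txndc12* (0.804) and *Smn1* (0.801), with 0.864, 0.817 and 0.713 in DP and 0.868, 0.931 and 0.855 in CD8 samples.

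By position the genes lie on 9 chromosomes, with *Rbl1* and *E2f1* both on chromosome 2. Exons of *Ccnd1* share 818 bases with *LTO1* and those of *Ccnd3* 358 bases with *Bysl*, each on the opposite strand, and counting was by strand per the study's methods. The exons of the other 8 share no base with another gene in the table.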

How the data were processed

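RNA-seq of 16 samples was analysed. The deposited values are counts of read fragments per gene: per the study's methods the authors trimmed reads with fastp 0.13.1, aligned them to mm10 with HISAT2 2.1.0 and counted by strand with featureCounts 1.6.1. All else was computed here. The tables hold 24984 genes for DP and 24974 for CD8 samples. Total counts ran from 14583336 to 25981683 in DP and from 8514135 to 13530783 in CD8 samples. TPM used the exonic length in the DP table, and CPM used TMM factors.

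Each pair of groups was fitted alone with edgeR 4.0.16 in R 4.3.3 (TMM, filterByExpr, quasi-likelihood F test), and the difference between both cKO changes in a fit of all 16 samples, with Benjamini-Hochberg adjustment over all genes tested. The SE of a log2 fold change is its absolute value divided by the square root of F. Called genes have adjusted p < 0.05, differ 1.5-fold or more and average 1 TPM or more in the samples compared. The alternatives were RLE normalization, the DESeq2 1.42.0 Wald test, no filter, at least 10 counts in every sample, adjusted p alone, all 4 groups in a single fit, the replicate number as a block, and each sample left out in turn. Leaving out both CD8 samples numbered 1 was added after seeing the data. The tests were tested on simulated data. Tables and figures used numpy 2.4.6, pandas 2.3.3, scipy 1.17.1 and matplotlib 3.10.9.

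Named were *Tox4*, the 10 genes, and from each pathway list and comparison up to 4 genes with the largest changes among those that passed, or where none passed up to 2 with the smallest p, and for each D cyclin the 3 genes with the highest r. Marker genes named beside a result, and *Cd163l1*, were chosen after their values were seen. The genes and lists were chosen with earlier results of these data known.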

Additional observations from a re-analysis of the deposited data

Results flagged for a closer look

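The difference between the cKO changes of *Ccnd2* in CD8 and DP cells met the rule for a difference between groups, with a log2 value of 1.16 (edgeR adjusted p = 0.0499, from 0.000347 to 0.223 over the alternatives). The CD8 change was 0.02 and the DP change -1.14.

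In a group of 5 samples a sample was marked when its gap to the nearest was above 0.71 of the group's range. CD8 control replicate 1 had 17741 genes with at least 1 count, and the nearest sample had 14194. The same library had 2.98 TPM of *Ccnd1*, where the nearest had 0.870. CD8 cKO replicate 5 had 85.3 TPM of *Rbl1*, and the nearest had 61.1. Of 26 groups examined 3 held such a sample, and chance gives about 1 in 20 groups, here 1.30. The cause was not tested.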

How the results depend on the processing

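Of 766 alternative values for the log2 fold changes of the 10 genes, 706 kept their direction and side of the threshold, 21 no longer passed, 5 newly passed and 34 changed sign. Of 1616 for the other named genes, 1591 kept both, 15 no longer passed, 6 newly passed and 4 changed sign. The cause was not tested.

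In DP cells the 17 genes called for cKO against control became 160 with DESeq2, 74 with no filter and 42 with all 4 groups in a single fit, and 0 to 8 with 1 library left out. The 0 of 10 past the test became 2, 1 and 1, and 0 to 0 with 1 library left out. In CD8 cells the 11 called became 53 with DESeq2 and 4 to 20 with 1 library left out, and 5 without both CD8 samples numbered 1, an alternative chosen after seeing the data. The 13 genes with different changes became 37 with DESeq2, 6 without both samples numbered 1, and 0 to 11 with 1 library left out, and the 1 of the 10 became 0 and 0 to 1.

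With the replicate number as a block, the called genes became 131 in DP and 31 in CD8 cells, the genes with different changes 33, and 1 of the 10 passed in DP cells (*Ccnd2*, log2 -1.11, edgeR adjusted p = 0.0181). The numbers were not taken to pair the samples: deviations from group means correlated above 0.1 for 2 of 3 numbers in DP (lowest 0.0813) and for 4 of 5 in CD8 samples (lowest 0.0998, highest 0.388), and 3 of 6 and 6 of 10 samples correlated best with their own number. Under the block *Ccnd1* in DP cells was at 0.04.

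Signs also changed without both samples numbered 1 for *Cdk4* (0.00) and *E2f1* (-0.16) in CD8 cells and for *Cdk6* (0.01) in the difference between changes, and with no filter for *Ccnd1* (0.00) in cKO CD8 against DP cells. With 1 library left out, values in DP cells ran from -0.64 to 0.96 for *Ccnd1*, -0.02 to 0.18 for *Ccnd3*, -0.26 to 0.10 for *Rbl1* and -0.06 to 0.55 for *E2f3*. In CD8 cells they ran from -0.07 to 0.06 for *Ccnd2*, -0.15 to 0.18 for *E2f1* and -0.01 to 0.10 for *E2f3*. In control CD8 against DP cells they ran from -1.32 to 0.65 for *Ccnd1*, -0.16 to 0.05 for *Cdk4* and -0.27 to 0.10 for *E2f1*, and in cKO cells from -0.19 to 0.30 for *Ccnd1*. For the difference between changes they ran from -0.59 to 1.38 for *Ccnd1*, -0.09 to 0.10 for *Cdk6*, -0.02 to 0.35 for *Rbl1*, -0.21 to 0.04 for *E2f2*, -0.52 to 0.10 for *E2f3* and -0.19 to 0.11 for *Cdkn1b*.

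With 3 DP samples in each group, and as few as 3 counts of *Ccnd1* in a CD8 sample, small changes could not be detected. CD8 and DP samples came as separate tables, and bulk RNA does not tell cell types apart.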
